A study of Homo sapiens with 9 samples.

Results

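The miR-15/16 seed family was followed from HMC-1 human mast cells into the RNA that these cells released. Its members were taken as the probes named hsa-miR-15a-5p, hsa-miR-15b-5p, hsa-miR-16-5p, hsa-miR-195-5p, hsa-miR-424-5p or hsa-miR-497-5p, where hsa stands for human and is left out below. This gave 6 of the 2019 miRNA probes on the arrays. HMC-1 is an immortal line derived from a mast cell leukaemia, so all samples come from 1 line. Per the labels, 3 samples hold cellular RNA, 3 hold RNA released by the cells that was found at high density in a sucrose gradient (HD), and the last 3 hold released RNA found at low density (LD). No treatment is given for any group, and the design text says that the cell, HD and LD samples of a number come from 1 culture. Each RNA sample was labelled with Hy5 and put on an array of its own. All 3 cell arrays share 1 slide, the 3 HD arrays and LD replicate 1 share another, and LD replicates 2 and 3 share the last, going by the chip numbers and scan sessions in the file names.

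MicroRNAs are short RNAs that guide Argonaute proteins to messenger RNAs, mostly through pairing of their seed, bases 2 to 8, with sites in the target. Members of the miR-15/16 family share a seed, and are known for lowering cyclins, cyclin-dependent kinases and the survival protein BCL2. The miR-15a and miR-16-1 hairpins lie in a region often deleted in chronic lymphocytic leukaemia, and the family is widely expressed in blood cells.

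The following mature sequences, from RefSeq on GRCh38.p14, are shown because they carry what the members share and how they part. Capitals mark bases 2 to 8 from the 5′ end, the seed.
miR-15a-5p: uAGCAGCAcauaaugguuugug
miR-15b-5p: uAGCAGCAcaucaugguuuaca
miR-16-5p: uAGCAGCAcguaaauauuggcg
miR-195-5p: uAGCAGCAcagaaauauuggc
miR-424-5p: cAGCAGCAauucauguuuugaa
miR-497-5p: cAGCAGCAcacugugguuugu
The 6 members hold the same seed, which 7 of the 2370 human mature miRNAs in the RefSeq table carry. The other one, miR-6838-5p, has no probe of that name on the arrays. Beyond the seed, miR-16-5p and miR-195-5p are the closest pair. Aligned from their 5′ ends they differ at 2 of 21 bases, G10A and U11G, with the miR-16-5p base first. miR-15a-5p differs from miR-15b-5p at 4 of 22 bases and from miR-497-5p at 4 of 21, while miR-16-5p and miR-497-5p differ at 10 of 21. Probe sequences were not used here, and how far the probe of 1 member binds another was not tested.

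On GRCh38.p14 the hairpins lie in pairs. MIR15A (chr13:50049119-50049201, minus strand) and MIR16-1 (chr13:50048973-50049061) are 57 bases apart. MIR15B (chr3:160404588-160404685, plus strand) and MIR16-2 (chr3:160404745-160404825) are 59 bases apart, and both MIR16 hairpins give the same mature miR-16-5p. MIR195 (chr17:7017615-7017701, minus strand) and MIR497 (chr17:7017911-7018022) are 209 bases apart. MIR424 lies on the X chromosome, 215 bases from MIR503.

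Signals are the authors' normalized intensities, in which the median detected miRNA probe of each array is 25. They are therefore levels relative to that probe and do not measure how much RNA a fraction held. In bulk samples, fewer cells or particles and less RNA in each cannot be told apart. A probe counted as detected if it had a normalized value, which stands for a raw intensity more than 2 SD above the blank spots. Of the miRNA probes, 21.8% to 25.1% were detected on the cell arrays, 12.6% to 16.3% on the HD arrays and 15.0% to 18.2% on the LD arrays. For the tests, probes without a value on an array were given that array's lowest detected signal, the floor, which lay between 9.60 and 13.5. Tests with limma covered the 334 probes that any 1 group showed on each of its 3 arrays, with culture as a block, and called at a Benjamini-Hochberg adjusted p under 0.05. All 6 members passed this filter through the cell arrays, where each was detected 3 times, and 4 of them also through the LD arrays. Because all members passed through the group where they are high, the counts of members called describe them and support nothing further.

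Of 7 miRNAs known from blood cells, 5 were detected on all cell arrays, among them miR-223-3p and both arms of miR-142, and miR-155-5p was detected on no array. Of 8 epithelial miRNAs 0 were detected on all 3 cell arrays. Of 7 mesenchymal, endothelial and neural miRNAs 2 were, miR-126-3p at 49.4 to 117 and miR-9-5p at 65.7 to 68.1. These lists use different probes, so their signals are not set against each other. The summed signal of 6 serum and red cell miRNAs was 11.3 to 78.8 in cells, 68.2 to 597 in HD and 32.9 to 106 in LD. Most of the HD sum was miR-451a, at 49.6 to 568.

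In cells the family lay far above the blank spots, apart from miR-424-5p. miR-16-5p, the member shared by both MIR16 hairpins, had signals of 1525, 3118 and 2113 in cultures 1, 2 and 3. miR-15b-5p, the partner of miR-16-2, had 651, 995 and 697, and miR-195-5p had 452, 1095 and 846. Culture 2 was the highest for each of them. miR-497-5p, which neighbours miR-195, had 292, 566 and 387, and miR-15a-5p, the partner of miR-16-1, had 125, 224 and 157. miR-424-5p, which lies apart from the other hairpins, had only 19.97, 43.4 and 18.5, which was 3.63 to 8.53 SD of the blank spots above their mean. Different probes cannot be ranked against each other by signal, because each binds with its own strength. The summed signal of the detected members was 3065, 6041 and 4218 in cells, 111, 27.0 and 0 in HD, and 375, 759 and 862 in LD.

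**Figure D1:**
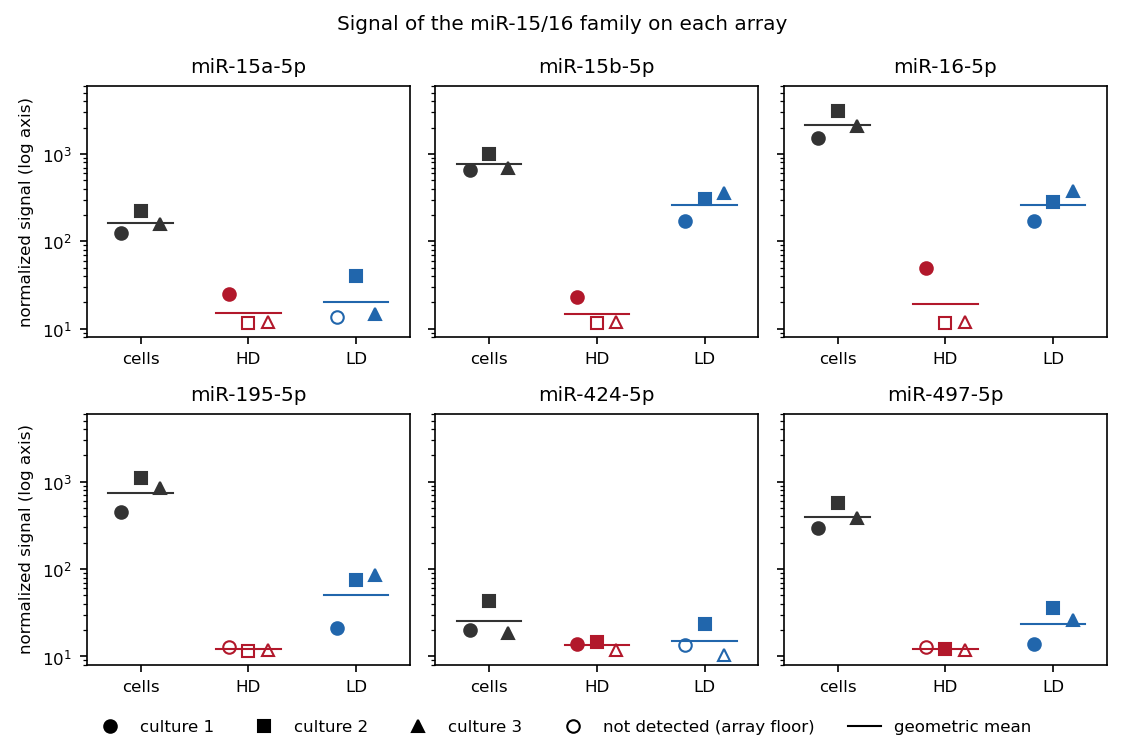
Normalized signal (log axis) of each member on the 9 arrays, with 1 panel per miRNA, symbols by culture, open symbols at the array floor where a member was not detected, and bars at the geometric mean over those values. The cell arrays lie above every HD array in each panel, and miR-15b-5p and miR-16-5p keep LD signals of 170 to 379.

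The comparison of HD with cells asked at what relative level the family is found in the dense extracellular fraction. All 6 members were lower there, and 5 of them had log2 changes between -6.83 and -3.43. Over all tested probes 79.9% were called in either direction and 49.4% were called lower. Among the tested probes detected on all cell arrays that share was 59.6%, and among those with a miRBase number below 1000, as all members have, it was 73.6%. The median change of the members was -5.36, against -0.70 over all tested probes.

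miR-16-5p was detected on 1 HD array, that of culture 1, at 49.2, and on neither other HD array, so that 2 of its HD values are floors. Its log2 change was -6.83 ± 0.58 (SE, n = 3 per group, limma adjusted p = 1.53e-06). Without HD replicate 1 every remaining HD value of miR-16-5p, miR-15b-5p and miR-15a-5p is a floor, and their changes of -7.80, -6.24 and -4.04 there are only bounds. miR-15b-5p was also detected on HD replicate 1 alone, at 22.8, with a change of -5.71 ± 0.40 (limma adjusted p = 4.75e-07). miR-15a-5p was at 25 there and undetected on the other HD arrays. Its change was -3.43 ± 0.45 (limma adjusted p = 4.24e-05). In these 3 members the HD signal thus came from 1 array, that of culture 1.

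miR-195-5p was undetected on each HD array, which under the reported scaling puts it at least 61.8-fold below the cells (limma adjusted p = 4.05e-07, with the HD spread that of the floors). This bound depends on the scaling: on the spike controls the log2 change of miR-195-5p was -3.04. miR-497-5p was detected on HD replicate 2 alone, at 12.3 against a floor of 11.6 on that array, and its change was -5.02 ± 0.33 (limma adjusted p = 3.27e-07). Both miRNAs of the chromosome 17 pair thus lay at or next to the floor in HD. miR-424-5p was detected on HD replicates 1 and 2, at 13.9 and 14.8, and not on HD replicate 3. It had a log2 change of -0.90 ± 0.30 (limma adjusted p = 0.0186). That call rested on little: it ended without cell replicate 2 (-0.71), HD replicate 2 (-0.61) or culture 2 (-0.58), and in 9 of 24 alternatives in all, and 1 more, the spike controls, turned its direction.

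Set against the blank spots of the same array, the HD intensities of the members were between -1.28 and 7.67 SD from the blank mean. The highest value was that of miR-16-5p on HD replicate 1. On HD replicate 3 the 6 members lay between -1.28 and 1.81 SD, below the detection limit. HD replicate 1 was also the HD array with the highest signal of miR-451a, a red cell miRNA, at 568 against 49.6 and 121 in replicates 2 and 3. Other miRNAs of its list did not all follow it. miR-486-5p was at 15.6 and 18.5 on HD replicates 1 and 2 and undetected on HD replicate 3. miR-486-3p was detected on HD replicate 3 alone (14.8) and miR-144-3p on HD replicate 1 alone (13.8). In the serum and red cell list, miR-144-5p and miR-122-5p were undetected on all HD arrays and miR-144-3p and miR-486-5p on all cell arrays. The part of such RNA in the HD signal of the family was not tested.

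**Figure D2:**
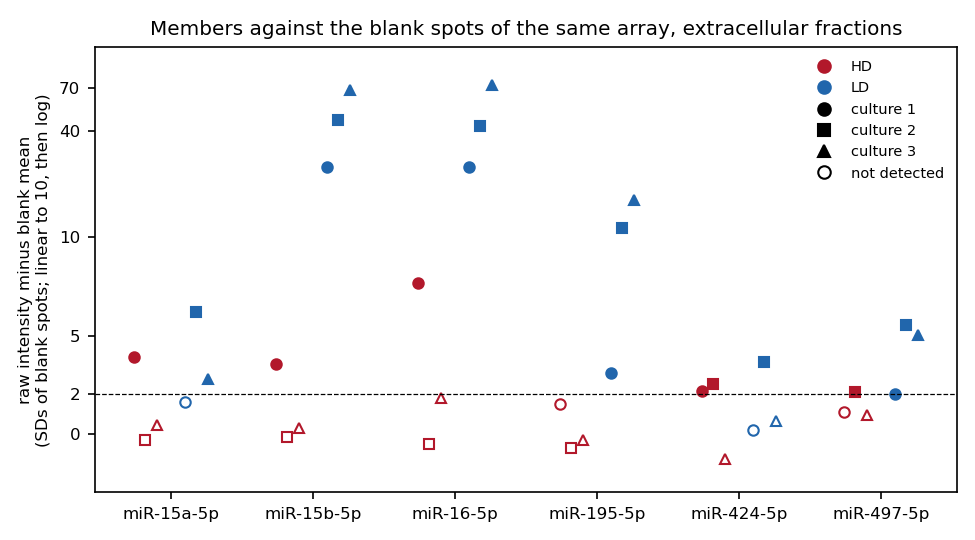
Raw intensity of each member minus the mean of the blank spots of its array, in SDs of those spots, for the 3 HD and 3 LD arrays; the axis is linear to 10 and logarithmic above, and the dashed line marks 2 SD. The HD points reach 7.67 at most, while miR-15b-5p and miR-16-5p in LD lie between 25.1 and 72.7.

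The LD samples were set against the cells to ask at what relative level the family is found in the light fraction. All 6 members had lower mean signals than in cells and 5 were called, but the sizes differed widely: miR-15b-5p was 2.91-fold lower and miR-497-5p 17.0-fold lower. Over all tested probes 60.8% were called in either direction and 44.0% were called lower. The share called lower was 53.1% of those detected on all cell arrays and 71.3% of those with a miRBase number below 1000. The median change of the members was -3.04, against -0.54 over all tested probes. Cells and their fractions lie on different slides, so slide and group cannot be told apart here.

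miR-15b-5p had LD signals of 170, 303 and 356 in cultures 1 to 3, all below the cell signals. Its log2 change was -1.54 ± 0.40 (SE, n = 3 per group, limma adjusted p = 0.00679, 95% interval -2.43 to -0.65). The call ended in 4 of 24 alternatives: without cell replicate 2 (-1.32, adjusted p = 0.0587), without culture 2 (-1.45), without scaling (-0.68, adjusted p = 0.495) and with log2 of the value plus 1 (adjusted p = 0.331). On the spike controls it turned to 0.72. Without LD replicate 1 the change was -1.12. In cultures 1 to 3 the normalized LD signal was 26.1%, 30.5% and 51.1% of that in cells.

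miR-16-5p had LD signals of 170, 281 and 379, also below all cell signals and lowest in culture 1. Its log2 change was -3.04 ± 0.58 (limma adjusted p = 0.00102), and the normalized LD signal was 11.1%, 9.01% and 17.9% of that in cells. Without LD replicate 1 the change was -2.51 and without cell replicate 2 it was -2.62, still called. The call ended in 2 of 24 alternatives. These were the spike controls (-0.78, limma adjusted p = 0.132) and log2 of the value plus 1 (limma adjusted p = 0.1405). miR-195-5p had 20.9, 74.1 and 85.3 in LD, lowest in culture 1, which was 4.63%, 6.77% and 10.1% of the cell signal. Its change was -3.88 ± 0.41 (limma adjusted p = 2.29e-05). It was the 10th lowest of the 334 changes, and miR-497-5p the 5th lowest. The LD array of culture 1 lies on another slide than those of cultures 2 and 3. Culture and slide thus cannot be told apart in the low LD values of culture 1.

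miR-497-5p had 13.8, 36.1 and 26.3 in LD, the first of these close to the floor of 13.5, and 4.71%, 6.39% and 6.79% of the cell signal. Its change was -4.09 ± 0.33 (limma adjusted p = 8.31e-06), between -4.27 and -3.80 when single libraries were left out. miR-15a-5p was detected on 2 LD arrays, at 40.4 in culture 2 and 14.6 in culture 3, and its change was -3.04 ± 0.45 (limma adjusted p = 0.000213), with the value of culture 1 a floor. It was -3.53 without LD replicate 2. The call of miR-15a-5p ended on the spike controls (-0.77, limma adjusted p = 0.1335) and with log2 of the value plus 1 (limma adjusted p = 0.1056). miR-424-5p was detected on LD replicate 2 alone, at 23.7. Its change of -0.76 (95% interval -1.44 to -0.08) was not called (limma adjusted p = 0.0521), although it was without HD replicate 2 (adjusted p = 0.0316) and with only the compared groups in the fit (adjusted p = 0.04575).

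**Figure D3:**
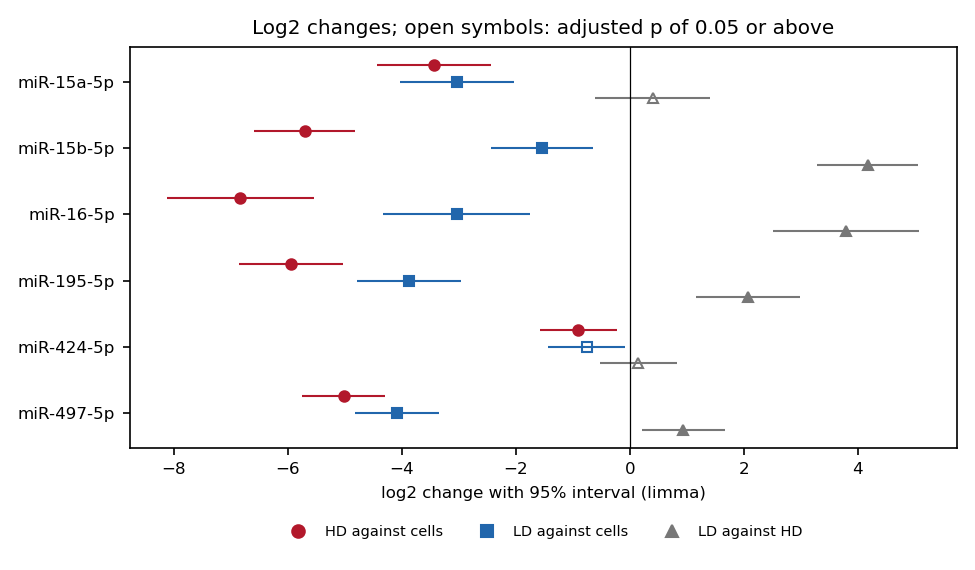
Log2 change of each member with its 95% interval from limma in the 3 comparisons; filled symbols passed an adjusted p of 0.05 and open ones did not. The HD changes run from -6.83 to -0.90 and the LD changes from -4.09 to -0.76.

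The scaling of the arrays moved all of these values together. When arrays were scaled on their spike controls, the median change of all tested probes in LD went from -0.54 to 1.72, while scaling on the 81 probes seen on all 9 arrays took it to -1.26. miR-15b-5p followed, with 0.72 and -2.26, so the direction of its change depended on the scaling. Relative to the median tested probe of the same setting, it was at -0.997 both as reported and on the spike controls. That is fixed in advance, since a scaling factor moves all probes of an array alike. Settings that can change this value gave -0.298 (deposited log2 table), -0.426 (normexp background correction) and -0.404 (quantile normalization). It was 0.580 with log2 of the value plus 1, -1.16 with undetected values missing and -1.78 with every probe detected on an array. Relative to the median probe as reported, miR-15a-5p lay at -2.49, miR-16-5p at -2.50, miR-195-5p at -3.33, miR-497-5p at -3.54 and miR-424-5p at -0.22. On the spike controls only miR-195-5p (-1.61) and miR-497-5p (-1.82) of the 6 were still called lower in LD. There miR-424-5p (1.50), detected on 1 LD array and otherwise at the floor, was called higher. The share of all probes called higher moved with the scaling: in LD 56 were higher and 147 lower as reported, 203 and 30 on the spike controls, and 20 and 187 on the probes seen on all arrays. In HD the counts were 102 and 165, 223 and 55, and 55 and 220. In HD the median went from -0.70 to 2.20 on the spike controls, where 4 members were still called lower, miR-15a-5p was not called (-0.53) and miR-424-5p was called higher (2.00).

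**Figure D4:**
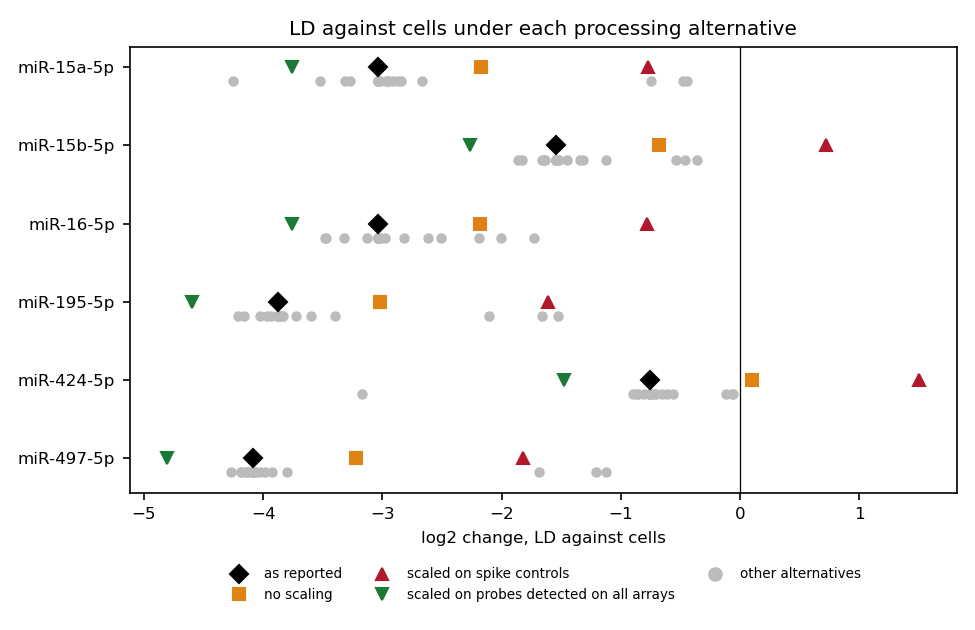
Log2 change in LD against cells of each member under the reported processing (diamond), without scaling, under other scalings and under the remaining alternatives (grey). Each member moves the same way with the scaling, and on the spike controls miR-15b-5p reaches 0.72 while miR-497-5p stays at -1.82.

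A ratio of 2 probes on the same array does not depend on the factor by which that array was scaled, though it does depend on how background is treated. Of the family, miR-15b-5p, miR-16-5p, miR-195-5p and miR-497-5p were detected on all cell and LD arrays, which gives 6 pairs. The signal of miR-15b-5p over that of miR-16-5p was 0.427, 0.319 and 0.330 in cells and 1.00, 1.08 and 0.940 in LD. It was higher in LD in 3 of 3 cultures, by 2.83-fold, and the groups did not overlap. How often ratios of other tested probes part in this way was not tested, for this pair or those below. The spread within a group was 0.23 log2 units (SD) in cells and 0.10 in LD, against a difference of 1.50. The exact two-sided permutation test of this difference gave p = 0.1 (n = 3 per group), the smallest that 3 against 3 samples can give, and 0.12 after Benjamini-Hochberg adjustment over the 6 pairs, so this test, which leaves the culture pairing unused, could not pass 0.05 whatever the values.

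The ratios of miR-15b-5p to the chromosome 17 pair were also higher in LD in 3 of 3 cultures. That to miR-195-5p was 1.44, 0.908 and 0.825 in cells and 8.14, 4.09 and 4.18 in LD, and that to miR-497-5p was 2.23, 1.76 and 1.80 in cells and 12.4, 8.39 and 13.6 in LD. Neither pair of groups overlapped, and the exact permutation p of 0.1 (n = 3 per group) is again the smallest possible. miR-16-5p over miR-195-5p went from 3.38, 2.85 and 2.50 in cells to 8.13, 3.79 and 4.44 in LD. Its difference of 0.84 log2 units was 0.51 without LD replicate 1. miR-16-5p over miR-497-5p went from 5.22, 5.51 and 5.46 to 12.3, 7.77 and 14.4. In both pairs the groups did not overlap, but their differences of 0.84 and 1.05 turned under 3 alternatives. They were -0.20 and -0.61 in the deposited log2 table, -0.086 and -0.50 with normexp background correction, and -0.34 and -0.80 with quantile normalization. The ratio of the neighbours miR-195-5p and miR-497-5p was 1.55, 1.94 and 2.19 in cells and 1.52, 2.05 and 3.25 in LD, with overlapping groups (exact permutation p = 0.7, n = 3 per group). The change of the miR-15b-5p to miR-16-5p ratio was 1.42 to 1.63 when single libraries were left out, 1.37 in the deposited log2 table, 1.66 with normexp and 1.54 with quantile normalization.

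**Figure D5:**
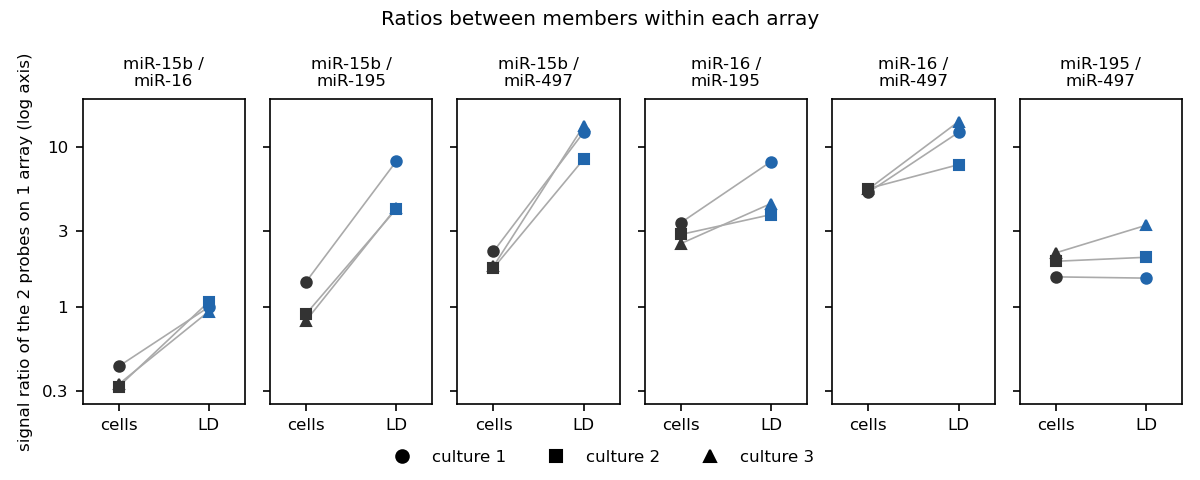
Ratio of the normalized signals of 2 members on the same array (log axis), in the 3 cell and 3 LD arrays, with lines joining the arrays of a culture. The ratio of miR-15b-5p to miR-16-5p goes from 0.319 to 0.427 in cells to 0.940 to 1.08 in LD, and that of miR-195-5p to miR-497-5p overlaps between the groups.

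LD was compared with HD to ask in which extracellular fraction the family is found. In 4 of 6 members the LD signal was called higher and in 0 lower, against 25.7% of all tested probes called higher, 26.3% lower and 52.1% in either direction. Of those detected on all cell arrays 30.0% were called higher. Among the tested entries with a miRBase number below 1000, 30.5% were called higher. miR-15b-5p was higher by 4.17 ± 0.40 log2 units (limma adjusted p = 1.62e-05), with 3 LD arrays at 170 to 356 and 1 HD array at 22.8. miR-16-5p was higher by 3.79 ± 0.58 log2 units (limma adjusted p = 0.000321). Without HD replicate 1 the differences were 4.70 and 4.76, against floors alone. The LD and HD arrays of both miRNAs did not overlap, and 2 of 3 HD values of each are floors. How often the LD and HD arrays of other tested probes part in this way was not counted.

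Under the reported scaling miR-195-5p was at least 4.21-fold higher in LD (limma adjusted p = 0.00164), a call that ended without culture 2 (1.77, adjusted p = 0.0504). miR-497-5p was higher by 0.93 ± 0.33 log2 units (limma adjusted p = 0.0339). This call did not hold in 18 of 25 alternatives, among them the fit with no replicate block (0.93, adjusted p = 0.0525), the fit without cell replicate 1, 2 or 3, HD replicate 2 or 3, or LD replicate 2 or 3, and the deposited log2 table (0.14). miR-15a-5p (0.40, 95% interval -0.61 to 1.40) and miR-424-5p (0.15, 95% interval -0.53 to 0.82) were not called. miR-15a-5p was called without HD replicate 1 (1.00) or culture 1 (1.04), again against floors alone.

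One slide holds arrays of both fractions, the 3 HD arrays and LD replicate 1. Within it miR-15b-5p was higher in LD by 3.53 log2 units, miR-16-5p by 3.16, miR-195-5p by 0.79 and miR-497-5p by 0.16. LD has 1 array there. The fit took its spread from the HD arrays and from LD replicates 2 and 3 on the other slide. On the HD arrays 2 of 3 values of miR-15b-5p and miR-16-5p are floors. These differences therefore neither support nor end a call on LD.

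The opposite arms of these hairpins were mostly undetected, as were most miRNA probes. Of 7 such arms, 1 was detected on all 3 cell arrays, against 277 of all 2019 miRNA probes. This was miR-16-2-3p, the partner strand of miR-16-5p in the MIR16-2 hairpin, at 17.0, 34.6 and 26.8. It was detected on LD replicate 1 at 20.3 and on no HD array. Under the reported scaling it was at least 2.07-fold lower in HD (limma adjusted p = 0.0207). That call ended in 10 of 23 alternatives, including those without cell replicate 2 (-0.78), cell replicate 3 (-0.89), HD replicate 2 (-0.93), culture 2 or culture 3. On the spike controls the value was 1.86, with every HD value a floor. miR-15a-3p was detected on cell replicate 2 alone at 11.4, and miR-195-3p on LD replicate 2 alone at 13.5. miR-15b-3p, miR-16-1-3p, miR-424-3p and miR-497-3p were detected on no array. None of the 8 probes for neighbours of the MIR424 hairpin was detected on all arrays of a group, against 334 of all 2019 miRNA probes. miR-503-5p, its nearest neighbour, was detected on cell replicate 2 alone at 11.1, and miR-542-5p on LD replicates 2 and 3 at 23.5 and 21.0. miR-542-3p was detected on HD replicate 3 alone at 14.2 and miR-450b-3p on cell replicate 1 alone at 12.0. miR-503-3p, miR-450a-5p, miR-450a-3p and miR-450b-5p were detected on no array.

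Of the 5 probes listed as related, miR-503-5p, miR-646, miR-103a-3p, miR-103b and miR-107, 2 were tested, miR-103a-3p and miR-107. miR-103b, which is antisense to miR-103a and has another seed, was detected on cell replicate 2 alone at 10.6. miR-103a-3p and miR-107 were called lower in HD and in LD and higher in LD than in HD. Their first 7 bases repeat the family's seed 1 base earlier, and they are known in mouse for effects on insulin sensitivity.
miR-103a-3p: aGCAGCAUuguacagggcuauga
miR-107: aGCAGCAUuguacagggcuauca
Capitals again mark bases 2 to 8, and show a seed that differs from that of the family. miR-103a-3p had signals of 659, 1104 and 752 in cells and 64.0, 63.2 and 83.8 in LD, and no HD array detected it. Under the reported scaling it was at least 67.6-fold lower in HD and 11.7-fold lower in LD (limma adjusted p = 1.00e-07 and 8.31e-06). miR-107 had 562, 939 and 651 in cells, 34.5, 60.2 and 78.5 in LD and 17.4 on HD replicate 1 alone, and its LD signal was 12.8-fold lower than in cells (limma adjusted p = 1.84e-05). The LD changes of both, -3.55 and -3.68, lay among those of miR-16-5p, miR-195-5p and miR-497-5p. miR-646 was detected on no array.

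Over the 9 arrays the log2 values of the members correlated with each other at 0.571 to 0.980, over 15 pairs. The highest were those of miR-195-5p with miR-497-5p (0.980) and of miR-15b-5p with miR-16-5p (0.977), and the lowest that of miR-15b-5p with miR-424-5p. The points share their arrays and 3 groups, so these values describe mainly the steps between cells, HD and LD. Of the 325 other tested probes with a usable value on each array, those most like the mean profile of the family were miR-29b-3p (Pearson r = 0.994), let-7a-5p (0.993), miR-107 (0.992), miR-342-3p (0.992) and let-7f-5p (0.991), each over 9 arrays. Their LD changes lay between -4.22 and -2.16 on the log2 scale.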

How the data were processed

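The members, lists and alternatives were chosen with earlier results of these data known. The text names all 6 members, the listed partner arms, neighbours and related seeds, and the 5 probes most like the family profile. Per the labels' protocols, RNA was labelled with Hy5 for 1-colour LNA arrays; scanner and software: not given in the sources used here. Per the file headers, the authors deposited the intensity of each spot as raw, as net of background and after global normalization. The columns show 1 background value subtracted per array and 1 factor setting the median detected miRNA probe to 25. The authors also deposited a log2 table, which followed the log2 of raw intensity (r of 0.986 to 0.998); its normalization is not stated.

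Log2 of the normalized intensity was fitted with limma 3.58.1 in R 4.3.3 (lmFit, eBayes; 4 residual and 6.05 prior degrees of freedom), with all 9 arrays and culture as a block; spots marked NG were left out, and no member was marked. The fit was tested on simulated data with normal spread and no floors, so that test does not cover values at the floor. The pairing comes from the design text: same-numbered samples correlated at -0.282 to 0.209 in their deviations from the group means. All deposited columns were mapped to a sample (0 others). P-values measure the spread between libraries, which includes array differences, and the number of arrays limits the precision. Where values are floors, the spread is that of the floors and not of the miRNA. For miR-195-5p and miR-103a-3p, undetected on all HD arrays, the HD SD was 0.072 log2 units, that of the HD floors. Sequences are RefSeq's, and figures were drawn with matplotlib 3.10.9.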

Additional observations from a re-analysis of the deposited data

How the results depend on the processing

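Over the processing alternatives, the falls of miR-15b-5p, miR-16-5p, miR-195-5p and miR-497-5p in HD stayed called in each alternative that gave a value, as did the falls of miR-195-5p and miR-497-5p in LD and the higher LD than HD signal of miR-15b-5p and miR-16-5p. Leaving out single libraries gave 5 to 6 members called in HD against cells, 4 to 6 in LD against cells and 3 to 5 in LD against HD, and 248 to 274, 169 to 212 and 137 to 179 of all probes. Without the culture as a replicate block, 4.17 stayed called for miR-15b-5p in LD against HD and the call of miR-497-5p (0.93) ended; no other call of a member ended there. In LD against cells, 3 members were called on the spike controls and 2 with log2 of the value plus 1, instead of 5. Over all probes the counts were 203 as reported and 97 without scaling (47 higher, 50 lower). In LD against HD, 2 members instead of 4 were called without culture 2, and over all probes 113 without culture 2 and 100 without scaling, instead of 174. With undetected values missing, 147 of 217 probes were called in HD against cells and 113 of 190 in LD against HD; miR-195-5p then has no HD value. Only the 81 probes detected on all arrays gave 58, 44 and 54 calls in HD against cells, LD against cells and LD against HD, and hold no member. Some of these settings also hold fewer probes or samples, and the cause of the fewer calls was not tested. Directions turned as follows. On the spike controls miR-424-5p was at 2.00 in HD and 1.50 in LD against cells and at -0.50 in LD against HD, miR-15b-5p at 0.72 in LD, miR-15a-5p at -0.24 in LD against HD, and miR-16-2-3p at 1.86, 1.42 and -0.43 in these comparisons. Undetected values there are floors divided by the spike signal of their array. miR-16-2-3p was detected on 0 HD arrays and 1 LD array, and miR-424-5p on 2 HD arrays and 1 LD array. Their values on the spike controls thus rest partly or wholly on floors. Without scaling miR-424-5p was at 0.10 and miR-16-2-3p at 0.019 in LD. With log2 of the value plus 1 miR-424-5p was at -1.08 in LD against HD. With undetected values missing miR-15a-5p was at -0.63 in LD against HD and miR-16-2-3p at 0.26 in LD against cells. In LD against HD, leaving out libraries or cultures gave at most 1.04 for miR-15a-5p, 0.32 for miR-424-5p and 0.45 for miR-16-2-3p. There miR-15a-5p was also at -0.17 within the slide, -0.16 without HD replicate 2, -0.092 without LD replicate 2 and -0.30 without culture 2; miR-424-5p at -0.15 without HD replicate 2 and -0.12 without culture 2; and miR-16-2-3p at -0.18 without LD replicate 1 and -0.018 without culture 1. In LD against HD 86 probes were higher and 88 lower as reported, 71 and 29 without scaling, 119 and 53 on probes seen on all arrays and 56 and 107 on the spike controls. In the deposited log2 table the ratio changes of miR-15b-5p to miR-195-5p and miR-497-5p were 1.17 and 0.76, those of miR-16-5p to them -0.20 and -0.61, and that of miR-195-5p to miR-497-5p was -0.41. With normexp these 5 changes were 1.57, 1.16, -0.086, -0.50 and -0.42, and with quantile normalization 1.20, 0.74, -0.34, -0.80 and -0.45. The ratios of members were added to the alternatives after seeing the data.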
